A study of Homo sapiens with 4 samples.

Results

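The 46 genes described here encode proteins that bind nuclear RNA and set its splicing, together with the kinases that act on them. They comprise 20 genes of heterogeneous nuclear ribonucleoproteins (hnRNPs), 14 genes of SR and TRA2 proteins, 6 genes of the CLK and SRPK kinases, and 6 genes of other splicing factors, namely PTBP1, PTBP2, U2AF1, U2AF2, SF3B1 and RBM39. They were chosen by name, through the gene symbol of each Ensembl identifier, and all 46 were found among the 58736 features listed for each library. Their RNA was measured by sequencing in HEK293A, an established line of human embryonic kidney cells, with 2 libraries labelled NT1_hp2 (replicates 2 and 3) and 2 labelled negative control, NC (replicates 1 and 3). Every well of both groups was seeded with 300000 cells, received 1 µg of a plasmid for FEN1, a nuclease that cuts DNA flaps, 24 h later, and was given 500 pmol of DNA probes 48 h after the plasmid, with RNA prepared after 72 h. The series asks how genes are regulated by FEN1 guided with hairpin DNA probes. The sources used here do not give the RNA that NT1_hp2 is aimed at, the control probe, the promoter on the plasmid or the number of separate cultures. The p-values thus rest on the spread of the libraries, and that spread may be technical.

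hnRNPs coat nascent transcripts as they leave RNA polymerase, and many of them repress the use of nearby splice sites. SR proteins carry a domain rich in arginine and serine and mostly promote the inclusion of the exons they bind, so an exon often answers to the balance of both families. SRPK kinases phosphorylate SR proteins in the cytoplasm before nuclear import, and CLK kinases phosphorylate them further in the nucleus, which releases them from nuclear speckles. Many genes of both families regulate their own transcripts through exons or introns that lead to decay of the RNA, a layer that a single value for each gene does not resolve.

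Levels are in FPKM, that is, a read count divided by gene length and library size. They rested on 12506203 to 14908687 reads per library, and 3 reads on a gene of 1 kilobase amounted to 0.208 to 0.239 FPKM, a floor that covers counting error only. The summed FPKM over all features was lower in NT1_hp2 (255854 and 253690) than in NC (304324 and 284677), and the mitochondrial share of reads was 4.33% and 4.29% in NT1_hp2, against 6.06% and 5.92% in NC. Of 7 markers of the kidney epithelial line, the keratin genes KRT8 and KRT18 lay at 54.4 to 112 FPKM and LHX1 at 1.73 to 2.18, while EPCAM, CDH1, PAX2 and PAX8 stayed below 1 FPKM in every library. The 3 blood markers were at 0 in all libraries, 2 endothelial and 3 mature tubule markers did not exceed 0.0545 FPKM, and of 3 fibroblast markers LUM reached 1.91 FPKM. The summed level of the 7 kidney epithelial markers, nearly all of it from KRT8 and KRT18, was 141 and 145 FPKM in NT1_hp2 and 193 and 170 FPKM in NC. The other markers did not move together. EPCAM was higher in NT1_hp2 (0.422 and 0.447 FPKM, against 0.221 and 0.253 in NC), CDH1 was lower, and LHX1, PAX2 and PAX8 overlapped between the groups. The part of these differences in the results was not tested, and in bulk RNA fewer cells of a type and less RNA per cell cannot be told apart.

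In NT1_hp2 7 of 20 hnRNP genes were lower than in NC, 2 of 14 SR and TRA2 genes passed the test in opposite directions, and the CLK and SRPK genes were split. The hnRNP genes that fell included HNRNPAB at 0.525, HNRNPA1 at 0.623 and HNRNPM at 0.639 of the control mean, and 0 hnRNP genes rose. Among SR protein genes SRSF10 rose and SRSF8 fell, of the 6 kinase genes CLK1 and SRPK2 rose and CLK2 fell, and of the other factors U2AF2 fell. Genes counted as risen or fallen had a Benjamini-Hochberg adjusted p under 0.05 over 16362 tested genes, from limma on log2(FPKM + 1), a scale on which changes of weakly expressed genes come out too small. Among the 45 members that entered the test, 3 rose, 10 fell and 32 did not pass, against 5.00% higher and 8.92% lower of all tested genes. Among abundant genes, those with means of 10 FPKM or more, 19.1% were called lower and 7.23% higher, and all 13 of the risen or fallen members are among the 40 members at that level. The median log2 difference was −0.15 over the 45 members, −0.24 over the 40 abundant ones, −0.0075 over all tested genes and −0.097 over all abundant genes. Both NT1_hp2 libraries lay below both NC libraries in 26 members and above both in 13, and the groups overlapped in 6. Of all tested genes 34.8% lay below and 32.0% above. Of the 4838 abundant genes 2402 lay below and 1384 above, and of the 40 abundant members 26 and 10.

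These calls need all 4 libraries. With any 1 library left out, 0 members passed limma's adjusted threshold, while an unadjusted p under 0.05 was found for 14 members without NT1_hp2 replicate 2, 14 without NT1_hp2 replicate 3, 24 without NC replicate 1 and 29 without NC replicate 3, and in all 4 cases the 13 risen or fallen members kept their direction. On the reads recovered from the FPKM, limma-voom called 7 members higher and 22 lower, against 14.4% and 19.9% of all genes. Of the 4838 abundant genes limma-voom called 827 higher and 1767 lower, and of the 40 abundant members 5 and 22. The direction of calls over all genes followed the scaling, with 35.9% of the called genes higher as deposited, 53.6% with libraries scaled to their totals (1531 higher, 1327 lower) and 51.0% with upper-quartile factors (1484 higher, 1428 lower), while the 13 members were called in the same direction under each of these scalings.

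**Figure D1:**
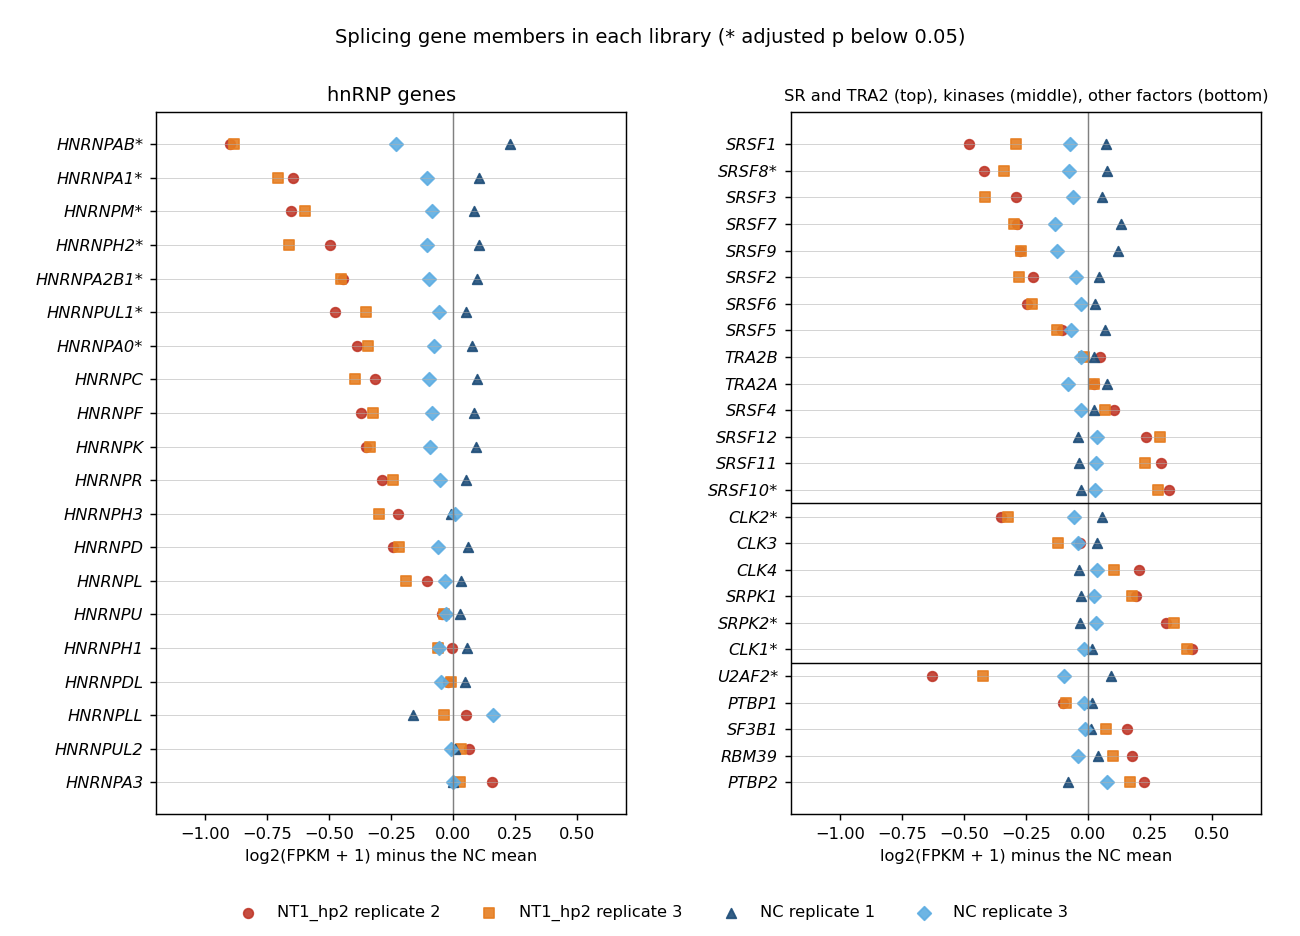
Log2(FPKM + 1) of the 45 tested genes in each library minus the mean of the 2 NC libraries, hnRNP genes on the left and SR, kinase and other genes on the right, with 1 symbol for each library and an asterisk at genes that passed the test. In most hnRNP genes, such as HNRNPA1 and HNRNPM, both NT1_hp2 points lie left of both NC points, and in CLK1, SRPK2 and SRSF10 they lie right of them.

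The most abundant of the set was HNRNPA1 (ENSG00000135486, chromosome 12, 54280193 to 54287088, plus strand, GRCh38), whose protein binds exonic silencers and opposes SR proteins. It was measured at 233 and 224 FPKM in NT1_hp2, against 394 and 339 FPKM in NC. Both NT1_hp2 libraries were close together and far below the lower NC library. The means were 228 ± 6.65 FPKM in NT1_hp2 and 366 ± 38.4 FPKM in NC (SD, n = 2 each), a log2 difference of −0.68 (SE 0.101, limma adjusted p = 0.0340). It rested on 16753 and 16161 reads in NT1_hp2 and 28869 and 21711 reads in NC. The coding sequence of HNRNPA1L2, a copy on chromosome 13, is 98.4% identical, and 75 named pseudogenes of HNRNPA1 held 556 and 540 reads in NT1_hp2 and 659 and 587 in NC, so the division of reads among copies is uncertain. HNRNPA1L2 itself was at 4.23 and 3.70 FPKM in NT1_hp2, against 7.90 and 5.98 FPKM in NC, and fell by 0.67 on the log2 scale (limma adjusted p = 0.0457).

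The nearest relatives of HNRNPA1 did not all move with it. HNRNPA2B1, which encodes a protein of the same core particles that also takes part in RNA transport, had 80.4 and 80.0 FPKM in NT1_hp2, against 118 and 103 FPKM in NC, a log2 difference of −0.45 (SE 0.0894, limma adjusted p = 0.0426). The groups did not overlap, and the 2 NT1_hp2 libraries were nearly equal. HNRNPA0, a related gene without introns in its coding part whose protein binds AU-rich elements, had 28.1 and 29.1 FPKM in NT1_hp2, against 39.2 and 35.1 FPKM in NC, and fell by 0.37 (SE 0.0784, limma adjusted p = 0.0465). HNRNPA3 had 76.9 and 70.1 FPKM in NT1_hp2 and 68.8 and 68.7 FPKM in NC, both NT1_hp2 libraries above both NC libraries by a small margin, a log2 difference of 0.094 that did not pass (limma adjusted p = 0.418). Its coding sequence is 63.1% identical to that of HNRNPA1, and that of HNRNPA2B1 is 65.6% identical. The ratio of HNRNPA1 to HNRNPA3, a pair singled out after the values were seen, was 3.03 and 3.19 in NT1_hp2 and 5.73 and 4.94 in NC.

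HNRNPAB (ENSG00000197451, chromosome 5, 178204507 to 178211163, plus strand), whose protein binds RNA and single-stranded DNA, had the lowest ratio to control of the set. Its level was 38.9 and 39.4 FPKM in NT1_hp2, against 86.5 and 62.6 FPKM in NC. The NT1_hp2 libraries were alike, while NC replicate 1 stood well above NC replicate 3. The log2 difference was −0.89 (SE 0.160, limma adjusted p = 0.0391), and it was −0.66 without NC replicate 1 and −1.12 without NC replicate 3. Of its exon bases 9.14% lie opposite exons of PHYKPL, and the library kit does not mark strand. HNRNPD, its relative that destabilises mRNAs with AU-rich elements, had 34.7 and 35.3 FPKM in NT1_hp2, against 43.1 and 39.4 FPKM in NC, a log2 difference of −0.23 that did not pass (limma adjusted p = 0.0891).

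HNRNPM (ENSG00000099783, chromosome 19, 8444767 to 8489114, plus strand), which encodes a splicing regulator known for its exon choices in epithelial and mesenchymal cells, had 32.2 and 33.5 FPKM in NT1_hp2, against 54.4 and 48.3 FPKM in NC. Replicates were close in both groups and the gap between the groups was wide. The log2 difference was −0.63 (SE 0.0819, limma adjusted p = 0.0340). HNRNPUL1, which encodes a relative of the nuclear scaffold protein HNRNPU, had 41.6 and 45.5 FPKM in NT1_hp2, against 60.7 and 56.2 FPKM in NC, with no overlap, and fell by 0.42 (SE 0.0805, limma adjusted p = 0.0416). HNRNPU and HNRNPUL2 themselves had log2 differences of −0.040 and 0.048 and did not pass (limma adjusted p = 0.686 and 0.616).

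In the family that binds runs of G, HNRNPH2 (ENSG00000126945, chromosome X, 101408295 to 101414133, plus strand) had 24.9 and 22.1 FPKM in NT1_hp2, against 38.2 and 32.9 FPKM in NC. Both NT1_hp2 libraries lay below both NC libraries. It fell by 0.58 on the log2 scale (SE 0.103, limma adjusted p = 0.0382). Its close relative HNRNPH1, with 87.6% identity of the coding sequence, had 54.2 and 52.0 FPKM in NT1_hp2 and 56.4 and 52.3 FPKM in NC, a log2 difference of −0.032 that did not pass (limma adjusted p = 0.786), and reads that match both genes could be assigned to either. The ratio of HNRNPH2 to HNRNPH1, singled out like the other pairs after the values were seen, was 0.459 and 0.425 in NT1_hp2, against 0.677 and 0.630 in NC. HNRNPH3 had 24.7 and 23.5 FPKM in NT1_hp2, against 28.9 and 29.2 FPKM in NC, a log2 difference of −0.26 (limma adjusted p = 0.0568). HNRNPF, the second most abundant hnRNP, had 89.9 and 93.2 FPKM in NT1_hp2, against 124 and 110 FPKM in NC, a log2 difference of −0.35 (limma adjusted p = 0.0584). The groups of neither gene overlapped, and neither passed.

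Among the remaining hnRNPs, HNRNPK, which binds runs of C, had 85.8 and 86.8 FPKM in NT1_hp2, against 117 and 103 FPKM in NC, and HNRNPC, which binds runs of U, had 64.9 and 61.3 FPKM in NT1_hp2, against 86.5 and 75.6 FPKM in NC. HNRNPR, a cytoplasmic and nuclear hnRNP related to SYNCRIP, had 23.5 and 24.3 FPKM in NT1_hp2, against 30.1 and 27.9 FPKM in NC. In all 3 both NT1_hp2 libraries were the lower ones, with log2 differences of −0.34, −0.35 and −0.27 that missed the threshold (limma adjusted p = 0.0627, 0.0622 and 0.0621). HNRNPDL, a relative of HNRNPD, had 72.4 and 73.1 FPKM in NT1_hp2 and 75.9 and 71.0 FPKM in NC. HNRNPU had 35.6 and 35.8 FPKM in NT1_hp2 and 37.5 and 36.0 FPKM in NC. As deposited, these abundant hnRNP genes were nearly level between the groups, HNRNPDL with overlap. HNRNPL, known for the splicing of CD45, had 21.0 and 19.7 FPKM in NT1_hp2 and 23.2 and 22.1 FPKM in NC, and its paralogue HNRNPLL had 9.70 and 9.04 FPKM in NT1_hp2 and 8.21 and 10.5 FPKM in NC, where the groups overlapped. HNRNPL, HNRNPLL and HNRNPDL had log2 differences of −0.15, 0.0085 and −0.012 and did not pass (limma adjusted p = 0.186, 0.969 and 0.917). Over the 20 hnRNP genes the median log2 difference was −0.31, and the middle 50% lay between −0.42 and −0.038. Negative differences were found in 8327 of 16362 tested genes, in 2954 of 4838 abundant genes and in 17 of the 20 hnRNP genes. The control libraries differed in the same genes: NC replicate 1 stood above NC replicate 3 in 18 of 20 hnRNPs and in all 10 fallen members, against 73.4% of all abundant genes, and the part of this in the differences was not tested.

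**Figure D2:**
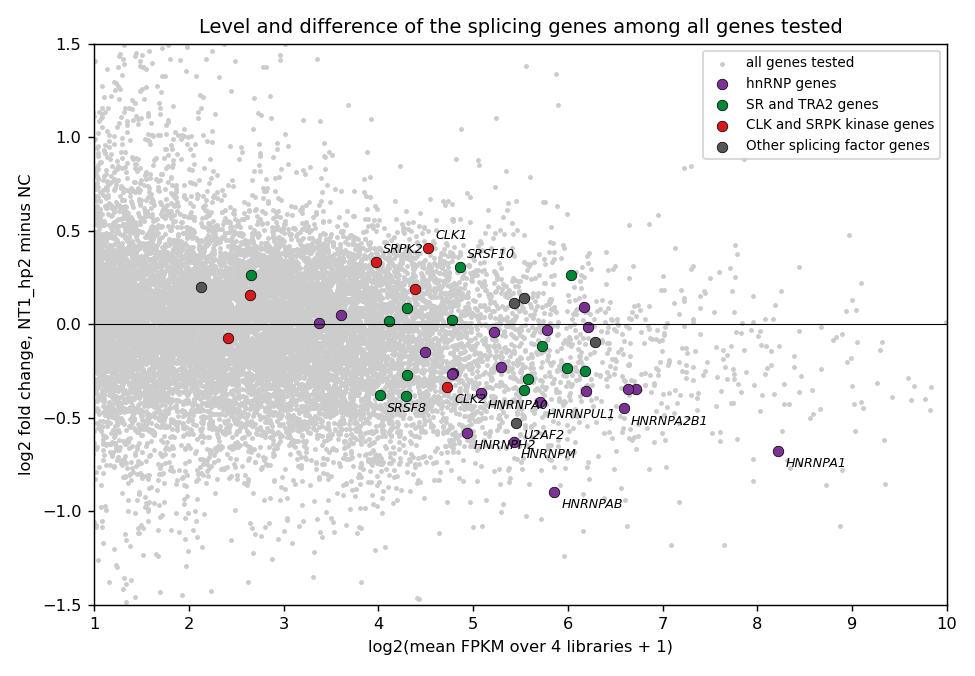
Log2 difference between NT1_hp2 and NC (vertical axis, limited to the range drawn) against the log2 of the mean FPKM over the 4 libraries plus 1, for all tested genes in grey and the members coloured by class. The hnRNP genes lie mostly below 0, with HNRNPA1 farthest right at −0.68 and HNRNPAB lowest at −0.89, while CLK1, SRPK2 and SRSF10 lie above 0.

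Among the SR protein genes, 12 of 14 did not pass. SRSF10, which encodes a splicing repressor that is activated when it loses its phosphates, had 31.6 and 30.6 FPKM in NT1_hp2, against 24.5 and 25.5 FPKM in NC. The replicates of each group were close and the groups did not overlap. It rose by 0.31 on the log2 scale (SE 0.0625, limma adjusted p = 0.0439). Its relative SRSF12, with 67.2% identity of the coding sequence, had 5.76 and 6.04 FPKM in NT1_hp2, against 4.60 and 4.90 FPKM in NC, a log2 difference of 0.26 that did not pass (limma adjusted p = 0.0808). SRSF11, among the most abundant of the family, had 72.3 and 69.0 FPKM in NT1_hp2, against 57.3 and 60.1 FPKM in NC, likewise without overlap and likewise not past the threshold, with a log2 difference of 0.26 (limma adjusted p = 0.0638).

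SRSF8, an expressed retrocopy of SRSF2, had 12.6 and 13.4 FPKM in NT1_hp2, against 18.2 and 16.3 FPKM in NC, and fell by 0.38 (SE 0.0806, limma adjusted p = 0.0459). SRSF2 itself, the most abundant SR gene, had 66.4 and 63.9 FPKM in NT1_hp2, against 80.1 and 75.1 FPKM in NC, a log2 difference of −0.25 that did not pass (limma adjusted p = 0.0771). Both genes had all NT1_hp2 values below all NC values. Of the SRSF2 exon bases 36.7% lie opposite exons of MFSD11, so in that stretch the reads of both genes cannot be told apart.

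Several SR genes were just short of the threshold. SRSF1, the founding member of the family, had 14.9 and 17.2 FPKM in NT1_hp2, against 22.4 and 20.1 FPKM in NC, a log2 difference of −0.38 (limma adjusted p = 0.0593). SRSF3, the smallest member and an adaptor of mRNA export, had 41.6 and 38.1 FPKM in NT1_hp2, against 53.2 and 49.0 FPKM in NC, a log2 difference of −0.35 (limma adjusted p = 0.0519). SRSF6 had 56.8 and 57.7 FPKM in NT1_hp2, against 68.9 and 66.2 FPKM in NC, a log2 difference of −0.23 (limma adjusted p = 0.0702). In each of the 3 genes the groups did not overlap. Of the exon bases of SRSF1, 56.6% are shared with AC015813.2 on the same strand, and the division of these reads is not given. SRSF7, a relative of SRSF3 that also serves mRNA export, had 42.0 and 41.7 FPKM in NT1_hp2, against 56.5 and 46.9 FPKM in NC, and SRSF9 had 16.8 and 16.9 FPKM in NT1_hp2, against 22.5 and 18.8 FPKM in NC. In both genes NC replicate 1 stood well above the other 3 libraries. Of the SRSF9 exon bases 46.2% lie opposite exons of GATC, so in that stretch the reads of SRSF9 and GATC cannot be told apart. The other members did not pass, with log2 differences from −0.29 for SRSF7 to 0.088 for SRSF4. TRA2A had 26.7 FPKM in both NT1_hp2 libraries and 27.8 and 24.8 FPKM in NC, and TRA2B differed by 0.017, so the ratio of TRA2B to TRA2A overlapped between the groups, at 0.627 and 0.598 in NT1_hp2 and 0.593 and 0.638 in NC. Over the 14 genes the median log2 difference was −0.17, with 6 positive and 8 negative.

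The kinase genes were split within the CLK family. CLK1 (ENSG00000013441, chromosome 2, 200853009 to 200864744, minus strand), which encodes a nuclear kinase of SR proteins, had 25.5 and 25.2 FPKM in NT1_hp2, against 19.0 and 18.6 FPKM in NC. Both groups were tight and well apart. The means were 25.3 ± 0.210 FPKM in NT1_hp2 and 18.8 ± 0.320 FPKM in NC (SD, n = 2 each), a rise of 0.41 on the log2 scale (SE 0.0593, limma adjusted p = 0.0340). CLK2 (ENSG00000176444, chromosome 1, 155262868 to 155278491, minus strand), a paralogue with the same substrates and 61.0% identity of the coding sequence, had 22.2 and 22.6 FPKM in NT1_hp2, against 29.7 and 27.4 FPKM in NC, and fell by 0.34 (SE 0.0691, limma adjusted p = 0.0441). CLK1 thus exceeded CLK2 in both NT1_hp2 libraries and lay below it in both NC libraries, with a ratio of 1.15 and 1.11 in NT1_hp2 and 0.641 and 0.679 in NC.

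CLK4, the closest relative of CLK1, had 5.84 and 5.38 FPKM in NT1_hp2 and 4.78 and 5.08 FPKM in NC, and CLK3 had 4.34 and 4.02 FPKM in NT1_hp2 and 4.60 and 4.31 FPKM in NC. Neither passed, with log2 differences of 0.16 and −0.075 (limma adjusted p = 0.236 and 0.566). SRPK2 (ENSG00000135250, chromosome 7, 105110704 to 105399308, minus strand), which encodes a cytoplasmic SR protein kinase, had 16.3 and 16.7 FPKM in NT1_hp2, against 12.6 and 13.2 FPKM in NC, and rose by 0.33 (SE 0.0634, limma adjusted p = 0.0410). SRPK1, its paralogue, had 21.4 and 21.1 FPKM in NT1_hp2, against 18.2 and 18.9 FPKM in NC, a log2 difference of 0.19 that did not pass (limma adjusted p = 0.0959). Both SRPK genes had all NT1_hp2 values above all NC values.

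Of the other factors, U2AF2, which encodes the large subunit of the dimer that recognises the polypyrimidine tract, had 32.3 and 37.4 FPKM in NT1_hp2, against 54.0 and 47.2 FPKM in NC, with no overlap. It fell by 0.53 on the log2 scale (SE 0.107, limma adjusted p = 0.0438). PTBP1, a repressor that binds the same kind of tract, had 74.1 and 74.7 FPKM in NT1_hp2 and 80.2 and 78.5 FPKM in NC, a log2 difference of −0.092 (limma adjusted p = 0.354). RBM39, which encodes a U2AF-related factor, had 49.0 and 46.5 FPKM in NT1_hp2 and 44.5 and 42.0 FPKM in NC, a log2 difference of 0.14 (limma adjusted p = 0.216). SF3B1, which encodes the branch point protein of the U2 particle, had 45.1 and 42.4 FPKM in NT1_hp2 and 40.7 and 39.9 FPKM in NC. PTBP2, the neuronal relative of PTBP1, was the least abundant tested member, with 3.78 and 3.59 FPKM in NT1_hp2 and 2.87 and 3.31 FPKM in NC. SF3B1 and PTBP2 differed by 0.12 and 0.20 and did not pass (limma adjusted p = 0.267 and 0.215).

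U2AF1, the gene of the small subunit that reads the AG at the end of introns, was the 1 member below the level required for the test. It was listed at 0.0573 and 0.0951 FPKM in NT1_hp2 and 0.106 and 0.0573 FPKM in NC, on 9 and 15 reads in NT1_hp2 and 17 and 8 in NC. A copy on the same chromosome, U2AF1L5 (chromosome 21, 6484623 to 6499261), was at 0.898 and 0.862 FPKM in NT1_hp2 and 0.999 and 0.766 FPKM in NC. In GENCODE 29 the 720 coding bases of both genes are identical, with 0 mismatches. The first 90 coding bases are printed for both genes, in lower case because 0 of them differ, to show that a read from this stretch fits both places equally.
U2AF1: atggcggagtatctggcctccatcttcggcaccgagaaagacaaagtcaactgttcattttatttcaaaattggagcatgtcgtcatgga
U2AF1L5: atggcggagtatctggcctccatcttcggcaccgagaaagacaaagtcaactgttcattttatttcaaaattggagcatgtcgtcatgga
The sources used here do not say how reads with several matches were treated, and these values give no level of U2AF1 mRNA.

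Summed over each family, the hnRNP genes held 1084 and 1069 FPKM in NT1_hp2 libraries, against 1501 and 1334 FPKM in NC libraries. The SR and TRA2 genes held 474 and 466 FPKM in NT1_hp2, against 528 and 493 FPKM in NC, and the kinase genes 95.5 and 95.0 FPKM in NT1_hp2, against 88.9 and 87.4 FPKM in NC. The ratio of the hnRNP sum to the SR sum, which does not depend on how libraries are scaled, was 2.29 in both NT1_hp2 libraries, against 2.84 and 2.71 in NC. Without HNRNPA1, which made up 21.5% and 20.9% of the hnRNP sum in NT1_hp2 and 26.2% and 25.4% in NC, the ratio was 1.79 and 1.81 in NT1_hp2, against 2.10 and 2.02 in NC. The SR sum over the kinase sum was 4.97 and 4.90 in NT1_hp2, against 5.94 and 5.64 in NC. The groups did not overlap in any of these 3 ratios. No test was made on them, since with 2 libraries against 2 the smallest two-sided exact permutation p is 0.333, and differences between the classes in the share of genes called were not tested either.

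**Figure D3:**
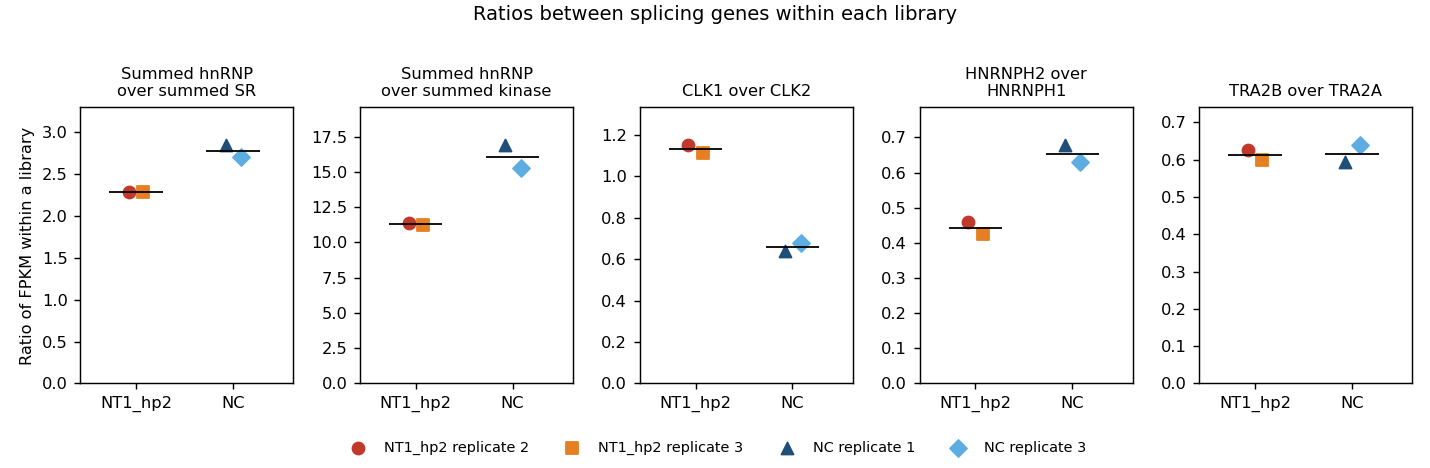
Ratios of FPKM within each library, with NT1_hp2 left of NC in each panel, points for libraries and bars for group means, for the hnRNP sum over the SR sum, the hnRNP sum over the kinase sum and 3 pairs of single genes. The hnRNP to SR ratio is 2.29 in both NT1_hp2 libraries and 2.84 and 2.71 in NC, CLK1 over CLK2 is above 1 in both NT1_hp2 libraries and below 1 in both NC libraries, and TRA2B over TRA2A overlaps.

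The start regions of the genes were read for known promoter motifs. RefSeq promoters, from 250 bases before to 50 after a gene's start (GRCh38.p14), were found for 42 of the 46 genes, with 63 promoters in all, and HNRNPA1, SRSF2, TRA2A and RBM39 were not among them. The motif CCAAT, searched on both strands, was present in 19 of 30 hnRNP promoters (63.3%), in 3 of 15 SR promoters and in 1 of 11 kinase promoters (9.09%), against 34.6% of all 35116 promoters. By gene this was 17 of 19 hnRNP genes, 2 of 12 SR genes and 1 of 6 kinase genes, against 10846 of all 27305 genes. A gene counted if any of its promoters matched, and the 19 hnRNP genes had 30 promoters, against 35116 for all genes. Among members that fell CCAAT was present in 6 of 9 genes with a promoter, and among members that rose in 0 of 3. Of those 9 fallen genes 6 are hnRNP genes. The E-box CACGTG was in 26.7%, 0% and 18.2% of hnRNP, SR and kinase promoters, against 7.26% of all. The GC box GGGCGG was in 70.0%, 46.7% and 63.6% of hnRNP, SR and kinase promoters, against 45.0% of all. Of the other motifs searched, TATAAA was in 10.0% of hnRNP promoters and 11.5% of all, and CCGGAAG in 10.0% and 10.3%. TGACG, which is contained in TGACGTCA, was in 46.7% of hnRNP, 46.7% of SR and 45.5% of kinase promoters, against 24.6% of all. The CGCG element, a palindrome, was in 2 of 30 hnRNP promoters (6.67%), 1 of 15 SR promoters and 0 of 11 kinase promoters, against 0.424% of all. TGACGTCA and the NRF1 palindrome were in 0 of the 63 member promoters and in 1.85% and 1.24% of all. Base composition differed too. The median GC content was 66.3% in hnRNP, 62.7% in SR and 64.0% in kinase promoters, against 58.7% in all promoters. The median number of places where guanine follows cytosine was 29, 28 and 32, against 14. Several motifs, among them the GC box and the E-box, contain this pair of bases. The shares were not adjusted for base composition, so they do not show enrichment of a motif beyond it. A match describes the sequence and shows neither binding nor a cause.

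The 250 bases before the start are printed for 3 fallen hnRNP genes and 2 risen genes, from 5′ to 3′ on the strand of the gene, with matches to the motifs (either strand, TGACG left out) in capitals. These genes were picked by hand as examples and do not stand for all members. Of the other fallen genes with a promoter, HNRNPM, CLK2 and U2AF2 hold no CCAAT, while HNRNPA0, HNRNPUL1 and SRSF8 hold it in at least 1 promoter. HNRNPAB is at chr5:178204283-178204532 on the plus strand and holds CCAAT at 118 and 75 bases before the start, TATAAA at 29 bases before it and 3 matches to the GC box. HNRNPH2 is at chrX:101407972-101408221 on the plus strand, with 3 CCAAT matches, 2 CACGTG matches and 1 match to the GC box. HNRNPA2B1 is at chr7:26200747-26200996 on the minus strand and holds 1 CCAAT, on the other strand. CLK1 is at chr2:200864659-200864908 on the minus strand, with 2 matches to the GC box, and SRSF10 is at chr1:23980328-23980577 on the minus strand, with 1 CGCG element, and neither holds CCAAT.
HNRNPAB: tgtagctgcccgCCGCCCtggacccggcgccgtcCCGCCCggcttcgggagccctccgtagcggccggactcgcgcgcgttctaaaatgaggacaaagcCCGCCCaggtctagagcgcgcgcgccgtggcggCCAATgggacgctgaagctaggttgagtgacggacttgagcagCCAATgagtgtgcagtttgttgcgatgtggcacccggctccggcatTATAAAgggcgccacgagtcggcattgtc
HNRNPH2: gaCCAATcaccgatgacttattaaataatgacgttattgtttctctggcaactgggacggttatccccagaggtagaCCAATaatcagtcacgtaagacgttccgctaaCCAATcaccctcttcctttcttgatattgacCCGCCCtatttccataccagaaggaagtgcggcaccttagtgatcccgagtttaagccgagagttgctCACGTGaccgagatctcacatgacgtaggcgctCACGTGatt
HNRNPA2B1: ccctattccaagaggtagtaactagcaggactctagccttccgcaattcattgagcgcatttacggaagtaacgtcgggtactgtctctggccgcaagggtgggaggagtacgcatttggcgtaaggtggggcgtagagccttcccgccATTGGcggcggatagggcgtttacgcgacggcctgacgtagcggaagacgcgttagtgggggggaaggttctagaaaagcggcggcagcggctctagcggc
CLK1: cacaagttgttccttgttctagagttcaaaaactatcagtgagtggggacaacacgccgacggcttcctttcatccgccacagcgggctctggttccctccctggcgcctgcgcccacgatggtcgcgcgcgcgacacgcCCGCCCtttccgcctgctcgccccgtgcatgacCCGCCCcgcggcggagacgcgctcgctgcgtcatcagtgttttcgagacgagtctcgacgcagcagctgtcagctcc
SRSF10: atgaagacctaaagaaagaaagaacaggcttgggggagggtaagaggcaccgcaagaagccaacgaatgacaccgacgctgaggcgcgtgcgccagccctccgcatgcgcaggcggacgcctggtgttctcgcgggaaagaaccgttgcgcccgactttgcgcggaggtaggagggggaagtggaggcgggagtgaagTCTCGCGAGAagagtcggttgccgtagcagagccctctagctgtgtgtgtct

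Members with more G and C tended to have lower differences. Across the 45 tested members, which share the same 4 libraries, the log2 difference correlated with the GC content of the longest transcript (Pearson's r = −0.45, Spearman's rho = −0.46), and across all 16350 tested genes with a GC value r was −0.47 and rho −0.56. Members with a larger summed exon length per gene had higher differences (r = 0.47, rho = 0.43 with its log2). This relation was weak over all tested genes (r = −0.060, rho = 0.094). These correlations run across genes, which are not independent replicates, and are given as descriptions. The median GC content was 41.2% over the tested members and 47.9% over all tested genes. The risen genes have 35.7% in CLK1, 39.8% in SRSF10 and 41.6% in SRPK2. Of the fallen genes U2AF2 has 61.1%, HNRNPUL1 56.3%, HNRNPM 54.9%, HNRNPAB 54.2% and CLK2 52.3%. The other fallen hnRNP genes have less G and C than those fallen genes, with 43.0% in HNRNPA1, 42.1% in HNRNPH2, 41.1% in HNRNPA0 and 39.9% in HNRNPA2B1.

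After smooth trends of length and GC content were removed from each library, 4 members passed, all lower hnRNP genes. Over all 16350 genes 1.10% passed lower and 0.703% higher. Of the 4838 abundant genes 138 passed lower and 66 higher, and of the 40 abundant members 4 and 0. HNRNPA1 stood at −0.77 (limma adjusted p = 0.0412), HNRNPM at −0.48 (0.0413), HNRNPH2 at −0.64 (0.0445) and HNRNPH3, not past the threshold as deposited, at −0.35 (0.0466). The other 10 risen or fallen members no longer passed, and all 13 kept their direction. CLK1 was at 0.19 (limma adjusted p = 0.112), SRPK2 at 0.19 (0.117), SRSF10 at 0.070 (0.389), CLK2 at −0.22 (0.0748) and U2AF2 at −0.25 (0.110). HNRNPA2B1, HNRNPA0, HNRNPAB and HNRNPUL1 were at −0.67, −0.55, −0.70 and −0.25 (limma adjusted p = 0.0530, 0.0537, 0.0602 and 0.0735), and SRSF8 at −0.44 (0.0583). HNRNPU, HNRNPH1 and HNRNPDL, nearly level as deposited, were at −0.34, −0.31 and −0.082 and did not pass (limma adjusted p = 0.0870, 0.0999 and 0.395). HNRNPUL2 was at 0.14 (limma adjusted p = 0.192). The median of the 20 hnRNP genes was then −0.40, that of the 14 SR and TRA2 genes −0.26 and that of the 6 kinase genes 0.0037. Of the 20 hnRNP genes 19 were then negative, and of the 14 SR and TRA2 genes 11, against 8515 of the 16350 genes and 2874 of the 4838 abundant genes.

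**Figure D4:**
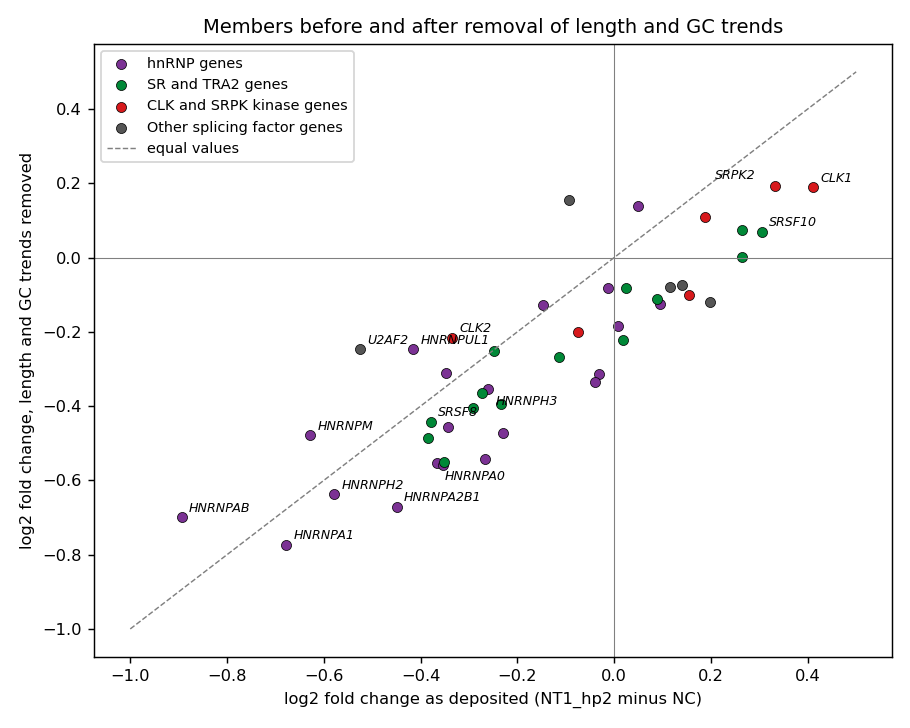
Log2 difference between NT1_hp2 and NC after removal of length and GC trends (vertical axis) against the difference as deposited (horizontal axis) for the 45 tested members, coloured by class, with a dashed line of equal values. HNRNPA1 lies lowest after the removal at −0.77, HNRNPAB moves up to −0.70, and CLK1, SRPK2 and SRSF10 move towards 0 but stay above it.

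Beyond the 46 members, 8 lists of other splicing genes were read from the same fit. Of 145 genes 140 were tested, 8 rose (5.71%) and 30 fell (21.4%), with a median log2 difference of −0.11, where 7.23% and 19.1% of all abundant genes and 5.00% and 8.92% of all tested genes did, so the shares lie near those of abundant genes. Of the 23 hnRNP-like genes 8 were lower and 0 higher, with a median of −0.24. RALY, a relative of HNRNPC, had 19.1 and 21.1 FPKM in NT1_hp2, against 33.2 and 29.7 FPKM in NC, and fell by 0.62 (limma adjusted p = 0.0340), and PCBP1, which binds runs of C, was at −0.48. The counts for the core particles follow, and their difference from other genes was not tested. Of 13 tested genes of the U1 and Sm proteins 3 fell (SNRNP70 −0.68, SNRPC −0.62, SNRPD3 −0.46), and of 16 genes of U5 and the tri-snRNP 5 fell (among them SART1 −0.74, CD2BP2 −0.73 and PRPF31 −0.69). Of 15 genes of the U2 particle 4 fell (among them SF3B4 −0.63 and PHF5A −0.58) and SNRPA1 rose by 0.52. Of 16 Prp19 and exon junction genes 3 fell (MAGOH −1.06, ALYREF −0.77, RBM8A −0.30).

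Regulators outside the hnRNP family had calls in both directions. Over all abundant genes 7.23% were called higher and 19.1% lower, and over all tested genes 5.00% and 8.92%. Whether the lists that follow differ from these shares was not tested. Of 19 genes of SR-related proteins 2 rose and 3 fell, among them SRRM1, a coactivator in nuclear speckles, which had 40.8 and 40.2 FPKM in NT1_hp2, against 30.1 and 30.4 FPKM in NC, and rose by 0.41 (limma adjusted p = 0.0340), and SRRT and SCAF1, at −0.68 and −0.49. Of 18 tested genes of other regulators of alternative splicing 3 rose (MBNL2 0.51, PTBP3 0.37, TIAL1 0.36) and 1 fell. Of 20 tested genes of further splicing kinases, phosphatases and import of SR proteins 2 rose and 3 fell, with TNPO1, an importin that carries HNRNPA1 to the nucleus, 0.44 higher, and the phosphatase gene PPP1CA and the export receptor gene NXF1 at −0.57 and −0.45. All these named genes passed limma's threshold with adjusted p between 0.0340 and 0.0487. After removal of the length and GC trends 2 of the 140 genes passed higher and 8 lower, against 0.703% and 1.10% of 16350 genes. Among the 4838 abundant genes 66 then passed higher and 138 lower.

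**Figure D5:**
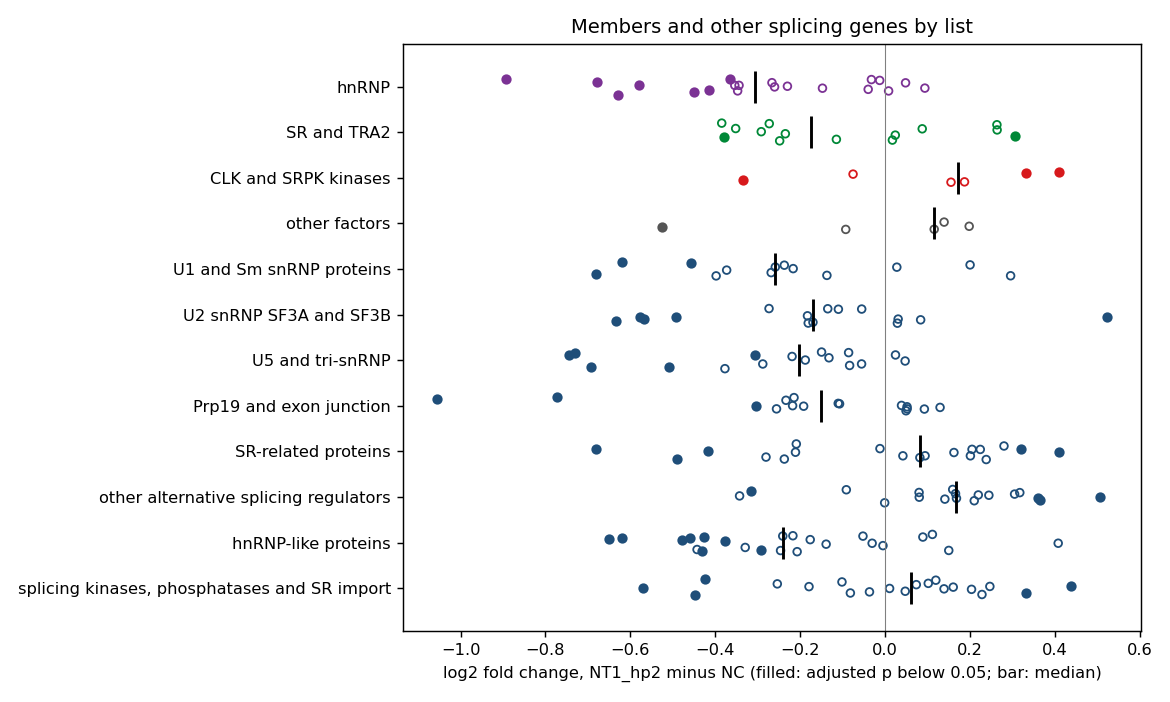
Log2 differences between NT1_hp2 and NC of single genes (points) and their medians (bars) for the 4 classes of members and the 8 further splicing lists, with genes that passed the test filled. The hnRNP and hnRNP-like lists have medians of −0.31 and −0.24 and 0 genes that passed above 0, while the kinase list has a median of 0.17.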

How the data were processed

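RNA sequencing libraries of HEK293A cells were compared, 2 labelled NT1_hp2 and 2 labelled NC, grouped by the titles. The authors deposited 1 table for each library, whose values are FPKM (reads normalised by gene length and library size) as inferred from the numbers, since no header states the unit. The build is GRCh38.p12, per the submitters' processing notes, while aligner, counter and scaling were not given in the sources used here. Per the labels' protocols the libraries were made from 1 µg of total RNA with a NEBNext Ultra kit. With the summed exon lengths of GENCODE 29, 100% of the values above 0 were whole reads within 0.01, and the library size implied by the values was 0.966 to 1.04 times the recovered reads. Each pair of replicates differed by more than sampling noise (chi-square per degree of freedom 2.69 for NT1_hp2 and 5.68 for NC), so each library counted as 1 replicate.

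Because the values are FPKM, no count test was the main one. Genes that reached 1 FPKM in 2 or more libraries were tested on log2(FPKM + 1) with limma 3.58.1 in R 4.3.3 (intensity trend, robust shrinkage), with Benjamini-Hochberg adjustment over all 16362 genes. The scripts were tested on simulated data. Symbols came from GENCODE 29, and 46 of 46 members matched. Sensitivity to scaling, to limma-voom on the recovered reads (whole for 100% of values), to robust shrinkage, filter, gene type and pseudocount, to removal of smooth length and GC trends (mgcv 1.9.3) and to each library was computed. The members and the lists were chosen with earlier results of these data known. Values in every library are given for each member that passed, for the next by p up to 20 in all and for the 3 most abundant of each class, and of the other lists up to 3 genes with the smallest p among those that passed are named, most of them with the log2 difference alone. Further members and ratios of single genes were singled out after the values were seen. A gene that this rule names is not reported here.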

Additional observations from a re-analysis of the deposited data

How the results depend on the processing

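No paired analysis was possible because the groups share only replicate number 3. Of all 16362 genes 2278 passed, and this was 5617 with limma-voom on recovered reads, 3647 with at least 1 FPKM in all 4 libraries, 4716 in protein-coding genes alone, 295 after removal of length and GC trends and 0 without the filter, where 6778 genes had an unadjusted limma p under 0.05. In the same order the 13 members became 29, 21, 27, 4 and 0 (26 unadjusted, limma), and the 7 hnRNP genes 13, 12, 13, 4 and 0 (13 unadjusted, limma). The 2 SR and TRA2 genes became 4 with each of the 3 scalings (library totals, median-of-ratios, upper quartile), 2 higher and 2 lower. They became 10 with limma-voom (3 higher, 7 lower), 1 without robust shrinkage and 5 with at least 1 FPKM in all 4 libraries (2 higher, 3 lower). They became 10 in protein-coding genes (3 higher, 7 lower), and 0 after the trend removal or without the filter (8 unadjusted, limma). The 3 kinase genes became 0 after the trend removal or without the filter (4 unadjusted, limma), and U2AF2 alone among the other factors became 2 genes with limma-voom and 0 in those 2 settings (1 unadjusted, limma). The 38 genes of the other lists became 76 with limma-voom, 63 in protein-coding genes, 10 after the trend removal and 0 without the filter (74 unadjusted, limma). Leaving out 1 library gave 0 to 1 genes over the whole table and 0 to 0 in every class and list by limma, with 3315 to 5836 genes, 14 to 29 members, 7 to 13 hnRNP, 2 to 11 SR and TRA2, 3 to 4 kinase and 1 to 1 other genes, and 39 to 78 genes of the other lists under an unadjusted p of 0.05. The median log2 difference of the members, −0.15 as reported, was −0.073 with library totals, −0.079 with upper-quartile factors, −0.25 after the trend removal and −0.19 to −0.10 with 1 library left out. The log2 difference of the hnRNP to SR ratio, −0.28, was −0.31 to −0.24 with 1 library left out.

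Members that changed sign had not passed in any of these cases. After the trend removal these were HNRNPA3 (−0.12), HNRNPLL (−0.19), SRSF4 (−0.11), TRA2A (−0.082), TRA2B (−0.22), CLK4 (−0.10), PTBP1 (0.16), PTBP2 (−0.12), SF3B1 (−0.080) and RBM39 (−0.073). With library totals they were HNRNPDL (0.064), HNRNPH1 (0.044) and HNRNPU (0.036), with median-of-ratios HNRNPDL (0.0097), and with upper-quartile factors HNRNPDL (0.058), HNRNPH1 (0.038) and HNRNPU (0.030). With 1 library left out HNRNPDL ran from −0.059 to 0.034, HNRNPH1 from −0.087 to 0.023, HNRNPLL from −0.15 to 0.17, TRA2A from −0.054 to 0.10 and TRA2B from −0.014 to 0.049. The cause was not tested in any case. With 2 libraries in each group, a gene's own spread has 2 degrees of freedom, and limma's shrinkage adds to it from all genes. With so few libraries, members not past the threshold are not shown to be equal, and U2AF1 was below the level required for the test.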
